A study of Mus musculus with 24 samples.

Results

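The Zic genes encode transcription factors with tandem C2H2 zinc fingers, relatives of the Gli factors that act at the end of Hedgehog signalling. Zic1, Zic2, Zic4 and Zic5 were taken by name as a gene family, and all 4 were found among the 22064 gene lines of the RNAseq tables. Embryonic stem cells (ESCs) of the mouse line E14 were grown without feeder cells in 2i medium, which holds inhibitors of MEK and GSK3β, together with leukemia inhibitory factor, and received no other treatment. Neural progenitor cells (NPCs) were made from the E14 line through embryoid bodies in serum-containing medium over 8 days, with 2 µM retinoic acid during the last 4 days. Polyadenylated RNA was sequenced from 3 samples of each cell type, labelled as replicates 1, 2 and 3. NADs, the domains of the genome found close to the nucleolus, were mapped in E14-derived lines that carry a heterozygous inducible transgene at Rosa26. The transgene encoded H2B fused to Dam, a bacterial enzyme that methylates adenine in GATC, either with a nucleolar localisation signal (H2B-Dam-NoLS, 2 samples per cell type) or without it (H2B-Dam, 2 samples per cell type). Expression was switched on for 15 h with doxycycline (100 ng/ml) and Shield1 (1 µM), in the NPC groups after the same 8 days of differentiation.

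Zic factors bind DNA and can also act through other proteins, among them Gli factors and the TCF factors of Wnt signalling. In the embryo they mark the neural plate border, the dorsal neural tube with its roof plate, the neural crest and the somites, and later the cerebellum, from which the family takes its name. Zic2 is also active in pluripotent cells. In the mouse genome the 4 genes form 2 neighbouring pairs, Zic1 with Zic4 and Zic2 with Zic5.

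RNA levels were deposited as RPKM (reads scaled to gene length and sequencing depth). The lowest values of each sample were whole multiples of what a single read is worth when multiplied by the length of the whole gene, introns included: between 96.25% and 96.7% of the genes under 8 reads came out within 0.02 of a whole read, against at most 8.12% with the length of the exons. The number of reads could therefore be read back for most genes, and the depth was 27.3 to 34.0 M reads (M for mega) per sample. Because the deposited values are divided by introns too, a level set against that of another gene is given below also per kilobase of exon. ESC replicate 3 stood apart from the other samples. Across genes with at least 1 RPKM in at least 3 samples, its log2(RPKM + 1) values had Pearson correlations of 0.963 and 0.966 with ESC replicates 1 and 2, which correlated with each other at 0.9985 (correlations across genes, which are not independent replicates). In that sample the median gene of the longest genes, from 25.9 kb, lay 0.25 below the mean of the other ESC samples on the log2(RPKM + 1) scale, and the median gene of the shortest genes, up to 10.1 kb, lay 0.25 above. The 3 NPC samples differed by at most 0.02 in either class. Tested differences of genes expressed in ESCs are therefore given also without ESC replicate 3.

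The group of 4 genes changed its make-up between the 2 cell types. Zic1 and Zic4 were not detected in any ESC sample and were detected in all NPC samples, whereas Zic2 and Zic5 were lower in all NPC samples than in any ESC sample. None of the 4 genes overlapped between the groups. Among the 18504 genes above 0 in at least 1 sample, 45.5% had all NPC samples above all ESC samples and 27.5% had all of them below, so that such separation was common in this comparison. The test on log2(RPKM + 1) took genes with at least 1 RPKM in at least 3 samples, which Zic1 and Zic2 met and Zic4 and Zic5 did not, so 2 of 4 members passed. ESC and NPC values come from separate deposited tables, so an effect of the table and one of the cell type cannot be told apart. In these bulk samples fewer expressing cells and less RNA per cell cannot be told apart.

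**Figure D1:**
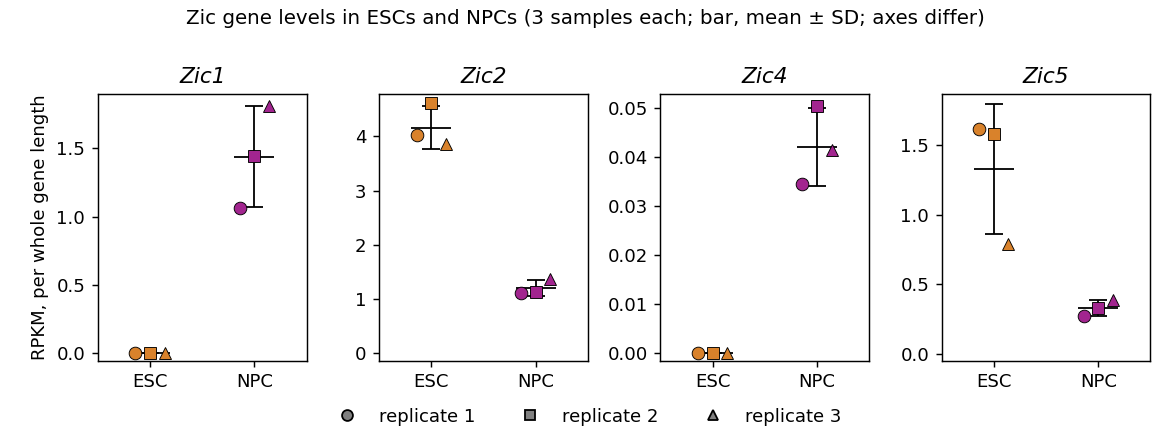
RPKM (vertical axes, linear, each with its own range) of the Zic genes in 3 ESC and 3 NPC samples. Symbols give the replicates, bars the mean ± SD. Zic1 and Zic4 sit at 0 in ESCs, and Zic2 and Zic5 are lower in every NPC sample than in any ESC sample.

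Zic1, a factor of the dorsal neural tube and the developing cerebellum, was listed at 0 RPKM in ESC replicates 1, 2 and 3, and at 1.07, 1.44 and 1.81 RPKM in NPC replicates 1, 2 and 3. In reads, the NPC samples held 249, 305 and 452 and the ESC samples none. The 98.6 M ESC reads allow at most 0.0304 reads per M (the limit of 3 reads over the group), against 11.2 per M in NPCs (95% Poisson interval 10.5 to 11.9), so that by this NPC estimate Zic1 was at least 368-fold higher in NPCs. Such limits and intervals cover counting error only. On the log2(RPKM + 1) scale, which understates changes of low genes, the difference was 1.27 ± 0.10 (SE, 3 against 3 samples; limma with a trend, adjusted p = 5.71e-05). Zic1 thus passed the threshold of an adjusted p of 0.05 and a log2 difference of 1, as did 16.6% of the 7907 genes tested in the direction of NPCs. Zic1 entered the test through its NPC values alone, and a gene at 0 in ESCs that enters this way has a log2 difference of at least 1, so the filter alone ensured that the threshold on size was met.

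Zic4, the neighbour of Zic1 and deleted together with it in some patients with a malformation of the cerebellum, was far lower. It was listed at 0 in the 3 ESC samples and at 0.0345, 0.0504 and 0.0414 RPKM in NPC replicates 1, 2 and 3. These values stand for 28, 37 and 36 reads. In reads per M the NPC level was 1.13 (95% Poisson interval 0.917 to 1.37), at least 37.0-fold above the limit that 0 reads allow in ESCs over the group. All NPC samples thus lay above all ESC samples, at a level far under the border of 1 RPKM, and Zic4 did not enter the test on log2(RPKM + 1). Without a filter on low values its difference on that scale was 0.06 ± 0.01 (SE; limma adjusted p = 3.73e-04), which does not reach a log2 difference of 1. A fit on the recovered reads, added after the data had been seen, called Zic4 higher in NPCs (limma voom, adjusted p = 3.18e-06, and 6.16e-07 to 5.53e-05 when each sample was left out). That fit called 36.9% of 14559 genes higher. Zic4 entered it through its NPC reads alone, so the filter on reads had already fixed its direction, and the call is a description.

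Zic2, needed for the forebrain midline and bound at enhancers in ESCs, had the highest ESC level of the 4 genes. Its RPKM were 4.02, 4.61 and 3.86 in ESC replicates 1, 2 and 3, against 1.10, 1.14 and 1.37 in the NPC replicates. Read counts were 605, 687 and 525 in ESCs and 147, 137 and 196 in NPCs. The 2 groups were far apart relative to their spread (means 4.17 ± 0.39 and 1.21 ± 0.15 RPKM, SD, n = 3 each), a 3.46-fold higher mean in ESCs. Zic2 fell by 1.23 on the log2(RPKM + 1) scale (SE 0.09; limma with a trend, adjusted p = 2.98e-05), a call shared by 12.1% of the genes tested. Without ESC replicate 3, which for Zic2 was at 89.5% of the mean of the other ESC samples, the fold was 3.58 and the log2 difference -1.27. Zic2 was still detected in every NPC sample.

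Zic5, the neighbour of Zic2 and a factor of the dorsal neural tube and neural crest, also had its highest values in ESCs. It reached 1.61, 1.58 and 0.786 RPKM in ESC replicates 1, 2 and 3, and 0.273, 0.326 and 0.387 RPKM in the NPC replicates, from 487, 472 and 215 reads and 73, 79 and 111 reads. ESC replicate 3 held 49.4% of the mean of the other ESC samples but stayed above all NPC samples. The mean was 4.03-fold higher in ESCs with all samples and 4.85-fold higher without ESC replicate 3. Zic5 exceeded 1 RPKM in only 2 samples and so was not tested on log2(RPKM + 1). With the filter lowered to 0.1 RPKM it fell by 0.79 on that scale (SE 0.15; limma adjusted p = 0.00332), short of a log2 difference of 1, and without a filter the adjusted p was 0.00804. On the recovered reads Zic5 fell by 1.95 on the log2 scale (SE 0.36; limma voom, adjusted p = 0.00227), and by 2.28 (SE 0.15) without ESC replicate 3. The adjusted p ranged from 5.72e-08 to 0.0132 when each sample was left out, so that the call was kept each time. The same fit called 17.2% of the genes lower in NPCs.

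The order of the levels was compared per kilobase of exon, since the share of introns differs widely between these genes. The methods of the study describe counting over exons, whereas the values fit division by the whole gene, and the scale per kilobase of exon holds only if the reads were counted over exons. Zic4 spans 26936 bases with 10335 in exons, whereas Zic2 spans 4418 bases with 2880 in exons. In ESCs, Zic2 stood above Zic5, at 6.39 ± 0.61 against 2.41 ± 0.85 reads per kilobase of exon and M reads (SD, n = 3), and this order held in each ESC sample. In NPCs, Zic1 at 1.96 ± 0.50 and Zic2 at 1.85 ± 0.23 could not be ordered. Zic1 was the lower of this pair in NPC replicate 1, with 0.857 of the Zic2 level, and the higher in replicates 2 and 3, with 1.13 and 1.17. Zic5 came next at 0.597 ± 0.10, followed by Zic4 at 0.110 ± 0.02, the lowest in each NPC sample. The summed level of Zic1, Zic2, Zic4 and Zic5 was 9.10, 9.94 and 7.35 in the ESC replicates and 3.73, 4.43 and 5.38 in the NPC replicates.

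**Figure D2:**
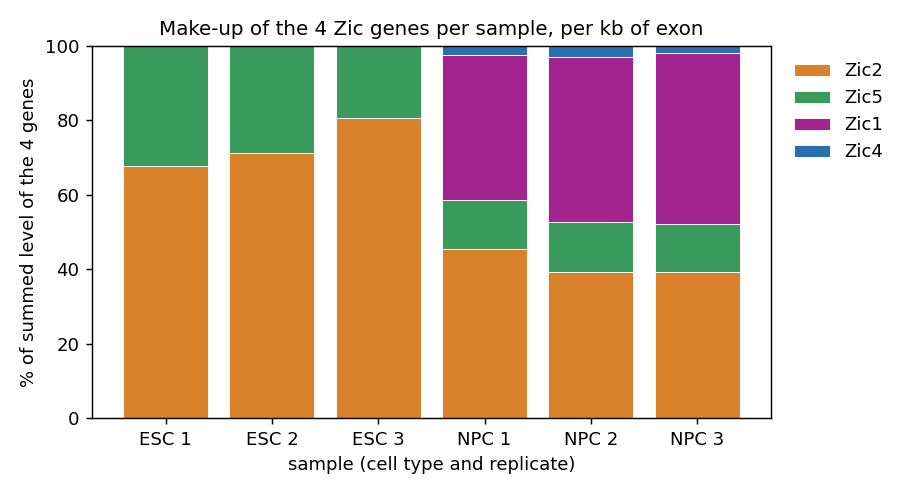
Share of Zic1, Zic2, Zic4 and Zic5 in their summed level (vertical axis, %; reads per kilobase of exon and M reads) in each of the 6 samples (horizontal axis). Zic2 and Zic5 make up the ESC bars, and Zic1 holds 38.9% to 45.7% of the NPC bars.

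Set against all genes, none of the 4 was abundant. Among 21479 genes with a recovered read count, the mean NPC level of Zic1 per kilobase of exon exceeded that of 52.7% of genes, and those of Zic2, Zic5 and Zic4 exceeded 52.2%, 43.9% and 34.2%. In ESCs the level of Zic2 exceeded that of 72.4% of genes and the level of Zic5 that of 60.8%. The NPC samples differed most for Zic1, whose highest value was 1.70 times the lowest, a ratio reached by 2.00% of the genes tested. The same ratio was 1.461 for Zic4, 1.42 for Zic5 and 1.245 for Zic2, reached by 3.42%, 4.06% and 10.5% of those genes, and the median was 1.09. Counting error adds to these ratios, most for Zic4 with 28 to 37 reads per NPC sample. Zic5 had 73 to 111, Zic2 137 to 196 and Zic1 249 to 452 reads. The genes tested were not matched for reads, so these shares do not set counting error apart.

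Within the Zic2 and Zic5 pair, the genes were compared by their ratio in each sample. The Zic2 level in RPKM was 2.50, 2.93 and 4.91 times that of Zic5 in ESC replicates 1, 2 and 3, and 4.05, 3.49 and 3.55 times in the NPC replicates. The NPC ratios lay inside the range of the ESC ratios, whose top is ESC replicate 3, and above both ratios of the other ESC samples. With 1 RPKM added to both genes, the log2 ratio was lower in NPCs than in ESCs by a difference of -0.44 (exact permutation test, two-sided, p = 0.1, the smallest p that 3 against 3 samples allow; -0.30 without ESC replicate 3). With 0.1 RPKM added the difference was -0.03 (exact permutation p = 1). With 0.01 RPKM added it was 0.14 in the other direction (exact permutation p = 0.8). The sign thus rested on the added value and, with 0.1 RPKM added, also on ESC replicate 3. At that setting the log2 ratios were 1.269, 1.492 and 2.16 in ESC replicates 1, 2 and 3. In the NPC replicates they were 1.692, 1.538 and 1.598, all above those of ESC replicates 1 and 2. The same order held with 0.01 RPKM added. Within the other pair, Zic1 was 30.9, 28.6 and 43.6 times as high as Zic4 in RPKM in NPC replicates 1, 2 and 3, and 16.15, 15.0 and 22.8 times as high per kilobase of exon. No ratio exists in ESCs, where both genes are at 0.

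The genes lie in mm10 as follows. Zic1 occupies chr9:91358058-91365810 on the minus strand, and Zic4 chr9:91362413-91389348 on the plus strand. In the GENCODE annotation of this build these gene lines overlap by 3398 bases, in which 1984 of the 5693 exon bases of Zic1 and 106 exon bases of Zic4 are found, with 60 bases in exons of both. The sources differ on the library kit, and only one of the kits named records the strand. The use of strand in counting is not given in the sources used here, so reads from the overlap cannot be told apart, and the small Zic4 values in particular are uncertain for this reason. Transcripts of different family members shared no window of 100 bases, and their longest identical run was 42 bases, between Zic1 and Zic4. Zic5 occupies chr14:122456795-122465677 on the minus strand and Zic2 chr14:122475435-122479852 on the plus strand, 9.76 kb apart and pointing away from each other.

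By overlap of the gene itself with any NAD, the 2 pairs differed in position. This rests on the borders and on NADs of low score: with 100 kb added on each side all 4 members met an NPC NAD and 2 an ESC NAD, and 0 members met an NPC NAD at or above the median score. In NPCs, Zic1 and Zic4 lay entirely inside a NAD at chr9:90899465-92199878. That domain is 1300 kb long, against a median of 200 kb over the 1447 NPC NADs, and 115 of them are at least as long. In ESCs neither gene overlapped a NAD: the nearest, at chr9:91500354-92000321 and chr9:90300590-91100016, were 111 kb from the end of Zic4 and 258 kb from the end of Zic1. The score of the NPC domain was 0.0364, under the median of 0.0413, and 1015 of the NPC NADs score at least as high. Across 21432 genes with a position, 7.12% overlapped a NAD in NPCs and none in ESCs, as Zic1 and Zic4 did. The RNA of both genes was thus detected in the cell type in which their region was called a NAD. Of the 516 tested genes in that position, 16.9% were called higher in NPCs and 10.3% lower, against 17.8% and 13.8% of the 5446 tested genes outside NADs in both cell types.

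Zic2 and Zic5 overlapped no NAD in either cell type, in common with 65.8% of genes. Their nearest NAD, chr14:122500154-122800470, was found with the same borders in both lists, 20.3 kb beyond the end of Zic2 and 34.5 kb beyond the start of Zic5. Its score was 0.0542 in ESCs, where 213 of 1769 NADs score at least as high, and 0.0684 in NPCs, where 222 of 1447 do. An ESC NAD at chr14:121899515-122198790, 258 kb from Zic5 on the other side, had no counterpart in NPCs within 4856 kb. NAD borders come from a map at 100 kb resolution with a single score per NAD for both replicates, so distances below that size carry little weight and the scores have no error. Dam marks GATC, which occurs 23 times in Zic1 and 58 times in Zic4 (2.97 and 2.15 per kb, against 2.49 on chromosome 9), 18 times in Zic5 (2.03 per kb, against 2.49 on chromosome 14) and 5 times in Zic2 (1.13 per kb).

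**Figure D3:**
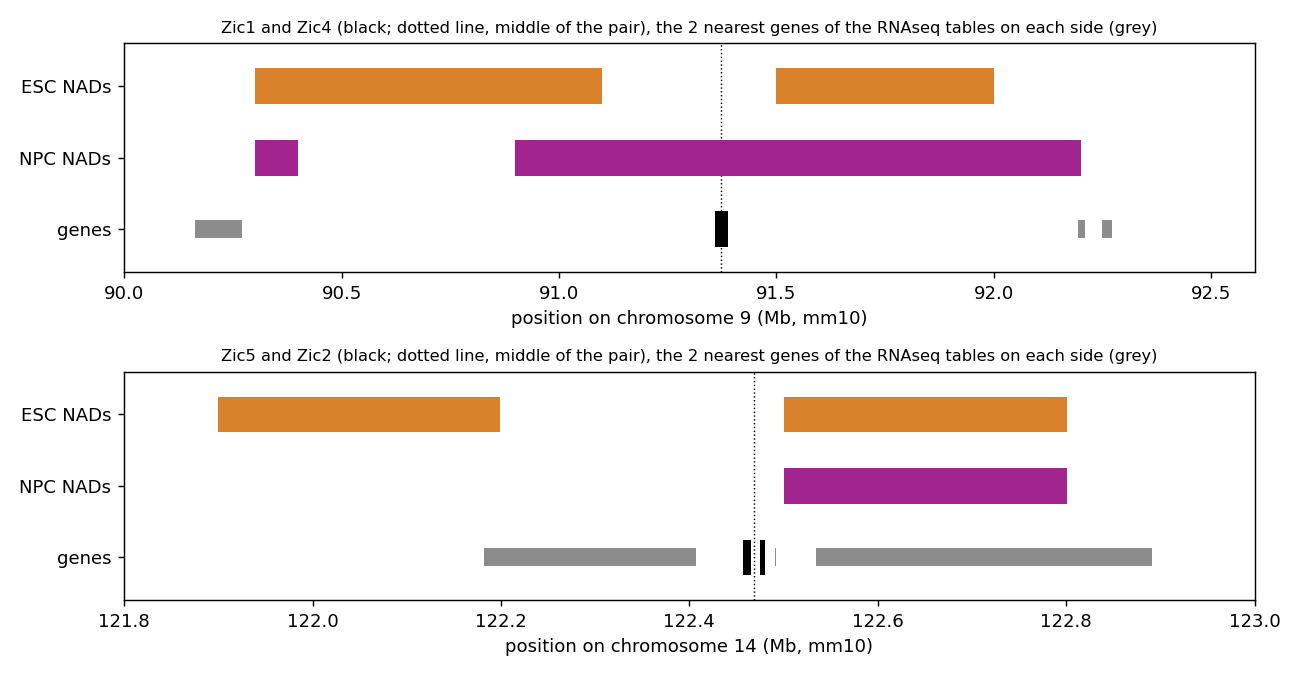
NADs of ESCs (orange) and NPCs (purple) around Zic1 and Zic4 on chromosome 9 and around Zic5 and Zic2 on chromosome 14 (horizontal axes, Mb, mm10). Zic1 and Zic4 lie inside the NPC NAD of 1300 kb and between ESC NADs, and Zic5 and Zic2 lie outside the NADs of both lists.

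Around Zic1 and Zic4 the RNAseq tables hold few genes. Apart from the pair, the NPC NAD overlaps only Plscr5, which was listed at 0 in all ESC samples and at 0.00591, 0.00654 and 0.00184 RPKM in NPC replicates 1, 2 and 3. The nearest genes on the other side, Tbc1d2b and Adamts7, lie more than 1087 kb away and were higher in every NPC sample, with 0.139 to 0.338 and 0.0960 to 0.194 RPKM in ESCs and 0.435 to 0.481 and 0.723 to 0.766 RPKM in NPCs. Plscr1, a phospholipid scramblase gene 860 kb away, had 1.92 to 2.83 RPKM in ESCs and 1.21 to 1.247 RPKM in NPCs, a log2 difference of -0.64 (limma adjusted p = 0.00254) that stays short of 1, as does the -0.77 without ESC replicate 3. Beside Zic2 and Zic5, Gm10837 was at 0 in all 6 samples, and Gm5089 was at 0 in ESCs and at most 0.00451 RPKM in NPCs. Clybl and Pcca, genes of mitochondrial metabolism 54.6 and 54.5 kb away on either side, had 0.105 to 0.200 and 0.0438 to 0.0742 RPKM over the 6 samples. No neighbour on chromosome 14 reached 1 RPKM in any sample.

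Sequence upstream of the start was taken from RefSeq (GRCm38.p6), whose set of promoters used here held Zic1, Zic4 and Zic5 but not Zic2. The RefSeq start of Zic4 lies inside the GENCODE gene and all 250 bases before it are in annotated Zic exons, so Zic4 is left out here. Only bases upstream of the annotated exons are printed, 5′ to 3′ along the gene, with CG in capitals. The Zic1 stretch is chr9:91365811-91366018 (minus strand, 208 bases) and holds 26 CG.
Zic1: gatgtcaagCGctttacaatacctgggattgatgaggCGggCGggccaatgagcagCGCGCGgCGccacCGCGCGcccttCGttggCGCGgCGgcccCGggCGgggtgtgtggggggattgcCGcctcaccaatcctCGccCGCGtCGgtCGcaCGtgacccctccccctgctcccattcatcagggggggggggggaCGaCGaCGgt
The Zic5 stretch is chr14:122465678-122465908 (minus strand, 231 bases) and holds 11 CG.
Zic5: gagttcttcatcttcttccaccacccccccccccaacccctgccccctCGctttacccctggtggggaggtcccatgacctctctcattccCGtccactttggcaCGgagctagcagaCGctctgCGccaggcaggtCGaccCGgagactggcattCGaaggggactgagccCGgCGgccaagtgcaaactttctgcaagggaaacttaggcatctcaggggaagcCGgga
Over the full 250 bases before the start Zic1 has 27 CG, a number reached by 8.56% of the 32851 promoters of the same length, whose median is 6. Zic5 has 11, reached by 35.6%. Zic1 also has 2 matches to GGGCGG on both strands together, found at least as often in 16.7% of promoters, and 2 matches to CCAAT, found at least as often in 10.1%. Zic5 had no match to these letters in the window. Neither window holds TATAAA or GACCACCCA, a sequence bound by Gli factors, which occur in 12.4% and 0.225% of promoters.

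Among the Gli and Glis factors, the closest relatives of the Zic family, 2 of 6 genes passed the filter and both rose in NPCs, where 16.6% of all genes tested rose and 12.1% fell. Gli1 passed through its NPC values alone, which fixed its direction. Gli1, a target and effector of Hedgehog signalling, had 0.665, 0.642 and 0.269 RPKM in ESCs and 14.002, 15.7 and 14.5 RPKM in NPCs (log2 difference 3.38 ± 0.13, SE, and 3.25 without ESC replicate 3; limma adjusted p = 1.21e-06). Glis2 had 2.05, 2.19 and 1.20 RPKM in ESCs and 5.87, 5.52 and 5.98 RPKM in NPCs (log2 difference 1.29 ± 0.15, SE, and 1.12 without ESC replicate 3; limma adjusted p = 3.21e-04). Gli3, chiefly a repressor of Hedgehog targets, was below the filter at 0.0487, 0.0589 and 0.0223 RPKM in ESCs and at 0.914, 0.816 and 0.850 RPKM in NPCs. Gli2 had 0.606, 0.641 and 0.211 RPKM in ESCs and 0.481, 0.464 and 0.4995 RPKM in NPCs, so that the groups overlap only through ESC replicate 3.

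Genes of the dorsal neural tube and neural plate border, where Zic genes are active in the embryo, were mostly low. Of 17 genes, 5 passed the filter and 4 of them were called higher in NPCs, against 16.6% of all genes tested. All 5 passed through their NPC values alone, which fixed their direction, so the count is a description. Msx3, a homeobox gene of the dorsal neural tube, rose from at most 0.0443 RPKM in ESCs to 6.30, 7.69 and 8.73 RPKM in NPCs. Its relatives Msx1 and Msx2 rose to 3.77 to 5.14 and 1.76 to 2.096 RPKM. Bmp4, a signal of the dorsal ectoderm, rose from 0.575 to 0.695 RPKM in ESCs to 3.46 to 3.52 RPKM in NPCs. Wnt1, chosen after its values were seen, was listed at 0 in the ESC samples and had 0.933, 1.32 and 1.77 RPKM in NPC replicates 1, 2 and 3, close to the values of Zic1 in the same samples. The other genes of this list that were not tested stayed at or below 1.06 RPKM in every sample, and Tfap2a among them went the other way, from 0.453 to 0.628 RPKM in ESCs to 0.0805 to 0.114 RPKM in NPCs.

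Genes that have been described as regulated by a Zic factor moved in different directions. Of 11 such genes, 5 passed the filter, 4 were called lower and 1 higher in NPCs, against 12.1% and 16.6% of all genes tested. The filter fixed the direction of most of them, since 3 passed through ESC values alone and 1 through NPC values alone. The pluripotency gene Nanog fell from 94.8 to 100.7 RPKM in ESCs to at most 0.0696 RPKM in NPCs. Nodal, a signal of the early embryo, fell from 10.9 to 11.5 RPKM to at most 0.0585 RPKM. Foxd3, active in ESCs and neural crest, fell from 7.16 to 8.14 RPKM to 0.805 to 0.871 RPKM, and the apolipoprotein gene Apoe fell from 168 to 308 RPKM to 21.3 to 34.5 RPKM (log2 difference -2.86, and -2.59 without ESC replicate 3). The gene called higher, Snai2 of the neural crest, rose from at most 0.191 RPKM to 3.79 to 4.29 RPKM. The 6 genes below the filter included neuronal targets such as Slc6a4 and Drd1, which were at 0 in ESCs and at most 0.0367 RPKM in NPCs.

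Of 14 genes whose products act on Zic factors or together with them, 10 passed the filter, and 4 were called higher and none lower in NPCs, against 16.6% and 12.1% of all genes tested. Among the 10, 2 passed through NPC values alone and 1 through ESC values alone. The count of 0 lower genes rests on the 1 RPKM added before taking logarithms, and with 0.1 RPKM added 1 gene was called lower. Smo, the transducer of the Hedgehog signal, rose from 0.291 to 0.597 RPKM in ESCs to 7.64 to 8.15 RPKM in NPCs, and the receptor Ptch1 from 0.652 to 1.57 RPKM to 6.82 to 7.23 RPKM (log2 difference 1.87, and 1.66 without ESC replicate 3). Mdfi, an inhibitor that can hold Zic factors out of the nucleus, rose from 0.218 to 0.344 RPKM to 3.85 to 5.46 RPKM. Ctnnb1, encoding β-catenin, had a log2 difference of 1.00 (limma adjusted p = 0.00237), at the border of the threshold, and 0.81 without ESC replicate 3, which ends its call. The median difference over the 10 genes was -0.09. Without ESC replicate 3 it lay further below 0, between the -0.38 of Xrcc6 and the -0.13 of Kpna1.

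The genes whose 6 values lay closest to those of Zic1, Zic4 and Zic5 were sought among genes passing the filter, by the Euclidean distance of log2(RPKM + 1) over the 6 samples. For Zic1 these were Unc5a, a netrin receptor gene, at a distance of 0.12, then Foxb1, a forkhead gene of the neural tube, at 0.14 and Lrrc32 at 0.17. Foxb1 had at most 0.00918 RPKM in ESCs and 1.24, 1.53 and 1.89 RPKM in NPC replicates 1, 2 and 3. For Zic5 they were Lrp11 at 0.31, Kirrel2 at 0.41 and AA986860 at 0.42. Zic4 had no close neighbour by this measure, since genes as low as Zic4 do not pass the filter, and its smallest distance was 1.69, to Ppp1r9a.

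The cell type labels were compared with marker genes. All 9 ESC markers fell in NPCs, against 12.1% of all genes tested, although 8 of them entered the test through ESC values alone, which fixed their direction. In NPCs Pou5f1 was at most 0.0651 RPKM, and the summed level of the 9 markers was 2.52 to 2.85 RPKM. In ESC replicates 1, 2 and 3 that sum was 1756, 1756 and 3656 RPKM, mostly from Dppa5a, which alone had 3131 RPKM in replicate 3. Of 10 neural progenitor markers, 8 passed the filter, 6 rose and none fell by this test, against 16.6% and 12.1% of all genes tested, and 5 of the 8 passed through NPC values alone. The summed level of that list was 42.0, 43.5 and 51.5 RPKM in ESC replicates 1, 2 and 3 and 95.2, 103 and 107 RPKM in the NPC replicates, with Vim as its most abundant gene in both. Pax6, which marks radial glia, rose from at most 0.0167 RPKM to 1.42 to 1.67 RPKM, and Sox1 had 0.343 to 0.491 RPKM in ESCs and 1.12 to 1.81 RPKM in NPCs. The NPC samples also held RNA of markers of other lineages, in some of which Zic genes can be active. Summed markers of meninges and fibroblasts went from at most 0.124 RPKM in ESCs to 51.6, 56.0 and 55.6 RPKM in NPC replicates 1, 2 and 3. Col1a1 had the highest NPC mean, although in NPC replicate 1 Col3a1 was above it (21.2 against 19.1 RPKM). The defining genes Dcn and Lum were below 0.1 RPKM. For neural crest the sums were 8.10 to 9.45 RPKM in ESCs and 28.9, 33.7 and 32.5 RPKM in NPCs, with Sox10 below 0.1 RPKM. The ESC sum was mostly Foxd3, which fell. Tfap2a, not tested, was lower in every NPC sample than in any ESC sample, and the NPC sum was mostly Twist1, at a mean of 25.0 RPKM. Mesoderm and somite markers summed to 1.22 to 1.36 RPKM in ESCs and 2.00 to 2.17 RPKM in NPCs, with T, Mesp1, Mixl1, Pax1 and Myf5 below 0.1 RPKM in NPCs. The ESC sum was mostly T, at 0.869 to 1.04 RPKM, and the NPC sum mostly Meox1, at most 0.00193 RPKM in ESCs. Markers of cerebellar granule precursors summed to 0.658 to 0.721 RPKM in ESCs and 4.39 to 4.84 RPKM in NPCs, led by Pax6, while the defining genes Atoh1 and Barhl1 stayed below 0.1 RPKM. Endoderm markers, led by Gata6 in NPCs, summed to 0.0834 to 0.115 RPKM in ESCs and 14.6 to 16.0 RPKM in NPCs with Afp below 0.1 RPKM, and keratins with Trp63 to 2.35 to 3.58 RPKM in ESCs and 52.5 to 54.3 RPKM in NPCs. The latter sum was mostly Krt18 and Krt8 of simple epithelia, and of the epidermal genes Krt5 and Trp63 stayed below 0.1 RPKM whereas Krt14 and Krt15 reached 0.832 to 1.02 and 1.19 to 2.03 RPKM. Neuronal markers summed to 11.7 to 14.9 RPKM in ESCs and 8.17 to 9.66 RPKM in NPCs, led by Tubb3. The sum fell through Stmn2 and Tubb3, whereas Dcx, Elavl3, Nhlh1, Map2 and Neurod1 were higher in every NPC sample than in any ESC sample. The part of these other cell types in the Zic levels was not tested.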

How the data were processed

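RNAseq levels were the RPKM deposited by the authors, and NAD scores were those deposited by the authors, with 1 score per NAD for both replicates. Zic1, Zic2, Zic4 and Zic5 were taken by name. The members and the gene lists were chosen with earlier results of these data known. NPC and ESC samples were compared with limma 3.58.1 in R 4.3.3 (trend on log2(RPKM + 1), 3 against 3 samples, Benjamini-Hochberg adjustment over 7907 genes with at least 1 RPKM in at least 3 of the 6 samples). A gene was called at an adjusted p under 0.05 and a log2 difference of at least 1. Reads were recovered from RPKM by the length of the whole gene in GENCODE M21. Alternatives were a pseudocount of 0.1 RPKM, no filter or a filter at 0.1 RPKM, median scaling, quantile normalization, no variance trend, a replicate block, and leaving out each sample. Limma voom on recovered reads (at least 10 reads in at least 3 samples), levels per kilobase of exon, a pseudocount of 0.01 RPKM and lists without ESC replicate 3 were chosen after seeing the data. The fit was tested on simulated data: of 100 genes changed by a log2 of 1.5 it recovered 88, of 100 changed by a log2 of 3 it recovered 100, with 1 false call. Tables and figures were made with python 3.11.15, pandas 2.3.3, numpy 2.4.6, scipy 1.17.1, matplotlib 3.10.9 and pysam 0.24.0.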

Additional observations from a re-analysis of the deposited data

How the results depend on the processing

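Zic1 and Zic2 were called in every alternative tried. Leaving out each sample gave log2 differences of 1.17 to 1.39 for Zic1 and -1.28 to -1.17 for Zic2, and 1228 to 1364 genes higher and 832 to 1075 lower. Voom on recovered reads tested 14559 genes and called 5371 higher and 2497 lower. That fit changes filter, scale, pseudocount and weights at once, and the cause was not tested. Changed alone, no filter gave 1323 higher and 978 lower, and a pseudocount of 0.1 RPKM gave 1915 and 1318. The main fit had 1309 and 955. Zic5 had a log2 difference of -1.95 in that fit. For Zic4 the fit gave 6.22, which is not a measured fold because the ESC samples held 0 reads. With 0.1 RPKM added, 1 gene that acts on or with Zic factors was called lower and 2 neuronal markers higher. The difference in the log2 ratio of Zic2 to Zic5 became 0.14 with 0.01 RPKM added (exact permutation p = 0.8). It is larger without ESC replicate 3, whose log2 ratio was 2.281. ESC replicates 1 and 2 had 1.315 and 1.543, and the NPC replicates 1.979, 1.771 and 1.802. With 100 kb on each side, 2 members met a NAD in ESCs and 4 in NPCs, and 0 members lay in NPC NADs at or above the median score.

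With the replicate number as a block, 1310 genes were higher and 956 lower. Whether samples of the same number were paired is not given in the sources used here. Correlations of their residuals were 0.11, -0.08 and 0.03, against -0.09 to 0.09 for samples of different number. With 3 samples per cell type these values cannot decide it.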
